A study of Saccharomyces cerevisiae with 21 samples.

Results

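The interval between 15 min and 45 min after dried yeast cells were given medium again was examined over the whole genome. It was covered by 6 arrays, 3 at each time, of the 21 arrays of a drying and rehydration series with 7 time points. All cells were of the diploid Saccharomyces cerevisiae strain BY4743 (S288C background). It lacks both copies of HIS3, LEU2 and URA3 and 1 copy each of LYS2 and MET15, so every group shares these alleles. Cultures in YPD, which is rich in glucose, were grown at 30 °C to an A600 of 0.8 and were moved to YPD diluted 1:20 at 22 to 25 °C, where the undried control was taken, and 15 ml portions were dried in 9 cm dishes. Sampling followed after 18 h of drying, and again in the dry state, which was reached at 42 h and held at 20% relative humidity for 72 h. The 15 min and 45 min samples are such dry cells after they received 1:20 YPD, with 4 plates pooled before sampling. Samples were also taken at 90 min and 360 min. The labels do not say whether the 3 samples of a time point came from separate drying runs, so a p-value here speaks only of the spread among them, which may be technical.

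Dried yeast takes up water quickly, while the return to growth is slower. In growing yeast, nutrient signals through the TOR and protein kinase A pathways keep genes for ribosomal proteins and ribosome assembly high. Starvation and drying do the opposite and induce chaperones, trehalose synthesis, hydrophilins (small, very soluble proteins made on water loss), autophagy and, in diploids, genes for entry into meiosis.

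Each array gave 1 signal for each of 9335 probe sets. After 60 chip controls were set aside, 9275 were tested, of which 6504 are assigned to a single gene, giving 5656 distinct genes. A change is the difference of mean log2 signals, 45 min minus 15 min, and calls were made at an adjusted p under 0.05 (limma, Benjamini-Hochberg over all 9275). Signals are relative to the total of the array, so a change in the share of a transcript, fewer cells that make it and less of it per cell cannot be told apart. Signals up to 29.6 were treated as background.

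Few probe sets passed the threshold for a change between 15 and 45 min, and a count of calls does not measure how many transcripts changed. Only 39 of the 9275 probe sets passed, which is 0.420% of those tested: 25 were higher at 45 min (0.270%) and 14 were lower (0.151%). In all 39 the 3 arrays of one time lay above the 3 of the other, as they did for 18.1% of all tested probe sets. The changes were small. Their median size was 0.69 on the log2 scale, 6 of 39 exceeded 2-fold, and 4 of those 6 had a time point at background on all 3 arrays. The calls lay close to the threshold, with adjusted p from 0.0055 to 0.04998 and over 0.03 for 15 of the 39. At an unadjusted p under 0.05 there were 1278 probe sets (13.8%), 685 higher (7.39%) and 593 lower (6.39%). With 1 array left out at a time, between 6 and 43 probe sets were higher and between 6 and 55 were lower, and only 7 of the 39 passed each time: both CSR2 probe sets, PET20, BUD7, HEM12, YDL086W and RPS28B. None of the 39 passed in a fit to these 6 arrays alone or with scaling on the spike-in controls.

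The same fit called far more probe sets in the neighbouring steps. From dry to 15 min 3737 passed (40.3%), from 45 to 90 min 508 (5.48%) and from 90 to 360 min 3471 (37.4%). The 45 min and 90 min arrays were scanned on different days, so that step cannot be told apart from scan day. The 3′ to 5′ signal ratios of ACT1, SRB4 and SPT15, a measure of RNA integrity, were all higher at 15 min than dry. That of ACT1 was 1.15, 1.05 and 0.95 log2 dry and 1.89, 1.74 and 1.54 at 15 min. The part of these differences in the counts was not tested. The median size of a change over all probe sets was 0.19 log2 between 15 and 45 min, 0.47 between dry and 15 min, and 0.24 between 45 and 90 min. Most changes were also bounded. Of the 6756 probe sets above background on all 6 arrays, 6078 (90.0%) had a 95% confidence interval lying wholly within 2-fold in either direction.

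**Figure D1:**
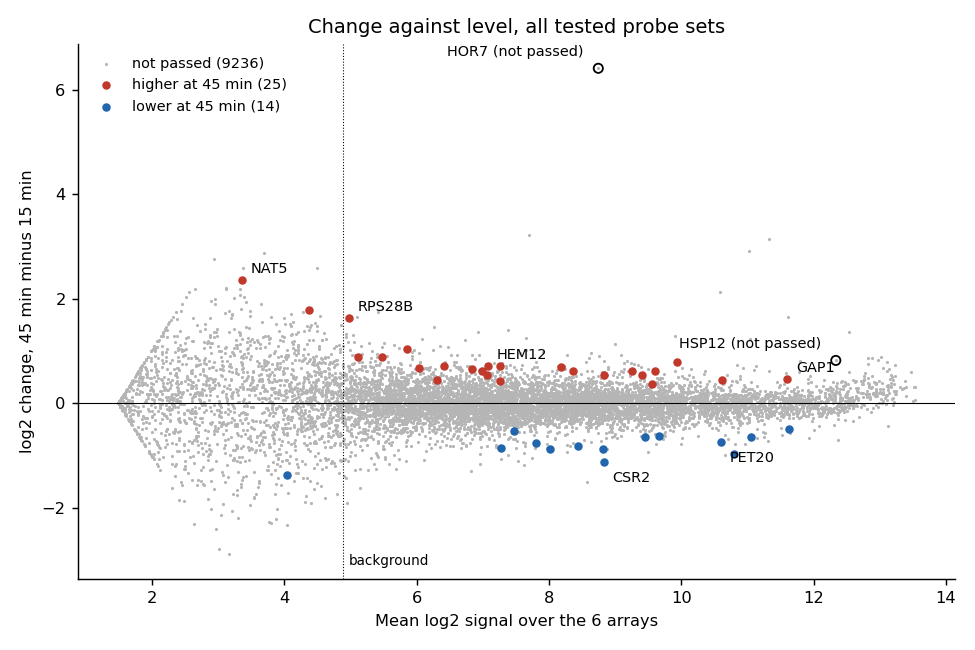
Log2 change from 15 to 45 min (vertical axis) against the mean log2 signal over the 6 arrays (horizontal axis), 1 point per probe set. The 25 probe sets that rose (red) and the 14 that fell (blue) are spread over most levels, the dotted line marks background, and the open circles mark HSP12 and HOR7, which did not pass.

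The transcripts that fell included CSR2, PET20, IME1 and ATG1. CSR2, an alpha-arrestin that takes part in the sorting of membrane transporters when the carbon source changes, passed on 2 of its 6 probe sets. On the first, the 15 min arrays gave 560.4, 735.1 and 730.5 and the 45 min arrays 321.0, 302.1 and 300.9. The groups were far apart, and the signal fell by 1.12 ± 0.16 log2 (SE, adjusted p = 0.0063). On the second, a brighter one, 2299.2, 2935.9 and 2266.3 became 1309.5, 1281.0 and 1204.9, a change of -0.97 ± 0.15 (adjusted p = 0.0163). Both carry the suffix of the chip maker that marks possible cross-hybridization. The other 4 CSR2 probe sets gave changes from -1.31 to -0.20 and did not pass. The brightest of the 6 changed by -0.44 ± 0.16 (adjusted p = 0.238). The brighter of those without a suffix changed by -0.20 ± 0.11 (adjusted p = 0.447). The probe sets of CSR2 thus did not give 1 size of change.

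PET20, a mitochondrial protein needed for respiratory growth, had the lowest adjusted p among the falls. Its signal was 1893.3, 2018.7 and 2111.7 at 15 min and 1105.9, 1282.0 and 1219.4 at 45 min. The lowest 15 min array was thus well above the highest 45 min array, and the fall was 1.67-fold (-0.74 ± 0.10, adjusted p = 0.0057). SOL1, related to the 6-phosphogluconolactonases of the pentose phosphate pathway but not itself shown to be one, gave 245.5, 285.7 and 355.5 at 15 min and 154.8, 190.3 and 172.9 at 45 min (-0.76 ± 0.14, adjusted p = 0.0299). All 3 later arrays were lower for both genes.

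IME1, the regulator that starts meiosis in diploid cells starved on a non-fermentable carbon source, read 556.6, 414.0 and 422.4 at 15 min. At 45 min it read 239.6, 252.7 and 290.1, a fall of 1.77-fold that stood at the edge of the threshold (-0.82 ± 0.17, adjusted p = 0.0497). The first 15 min array was the highest and the groups did not overlap. ATG1, the kinase that starts autophagy, went from 2376.4, 3013.8 and 2696.3 to 1838.6, 1697.4 and 1587.0 (-0.65 ± 0.13, adjusted p = 0.0324). The mean of IME1 was 2988 ± 80.9 (SD, n = 3) after 18 h of drying, 573.2 ± 34.2 in the dry state, 464.3 ± 80.02 at 15 min, 260.8 ± 26.2 at 45 min and 119.0 ± 30.7 at 360 min. ATG1 instead peaked at 15 min, at 2696 ± 319, and reached 454.8 ± 47.2 at 360 min.

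PUF2, a Pumilio-family protein that binds messenger RNAs, gave 960.3, 962.3 and 1092.9 and then 616.4, 625.4 and 713.0 (-0.63 ± 0.11, adjusted p = 0.0203). RLI1, an iron-sulfur ATPase that splits ribosomes after termination, gave 317.0, 412.8 and 331.7 and then 175.7, 213.4 and 183.6 (-0.89 ± 0.16, adjusted p = 0.0279). In both, every 45 min array was below every 15 min array. CDC39, the scaffold of the CCR4-NOT deadenylase, passed on 1 of 9 probe sets (548.2, 629.6 and 659.4 against 274.4, 324.2 and 415.3; -0.87 ± 0.16, adjusted p = 0.0279), which carries the cross-hybridization suffix. Its probe set without a suffix and with a signal above background changed by -0.20 ± 0.12 (adjusted p = 0.504), so the probe sets of this gene did not give 1 size of change.

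SRC1, an inner nuclear membrane protein, gave 822.0, 966.1 and 849.8 at 15 min and 558.7, 520.2 and 598.7 at 45 min (-0.65 ± 0.13, adjusted p = 0.0497). SGD1, an essential nuclear protein, gave 190.8, 235.7 and 219.2 and then 151.6, 139.2 and 151.8 (-0.54 ± 0.11, adjusted p = 0.0444). The later arrays were lower throughout. KIN2, a kinase that acts in exocytosis, passed on 1 of 6 probe sets, with 200.8, 194.8 and 232.9 and then 87.4, 134.1 and 132.2 (-0.85 ± 0.17, adjusted p = 0.0424). That probe set carries a suffix, and the other 5 gave changes from -1.11 to -0.45. The brightest KIN2 probe set, which has no suffix, changed by -0.45 ± 0.32 (adjusted p = 0.583). PAL2, an endocytosis protein, had a pair of probe sets of opposite sign: one fell from 3601.4, 4075.9 and 3667.7 to 2756.3, 2788.5 and 2518.4 (-0.49 ± 0.10, adjusted p = 0.0425), while the brighter one changed by 0.24 ± 0.13 (adjusted p = 0.430). RBS1, linked to RNA polymerase III assembly, read 29.3, 31.3 and 20.0 at 15 min and 9.8, 10.1 and 10.5 at 45 min. Only 1 of those 6 values was above background, its other probe set changed by -0.07 ± 0.28, and no fold is given.

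**Figure D2:**
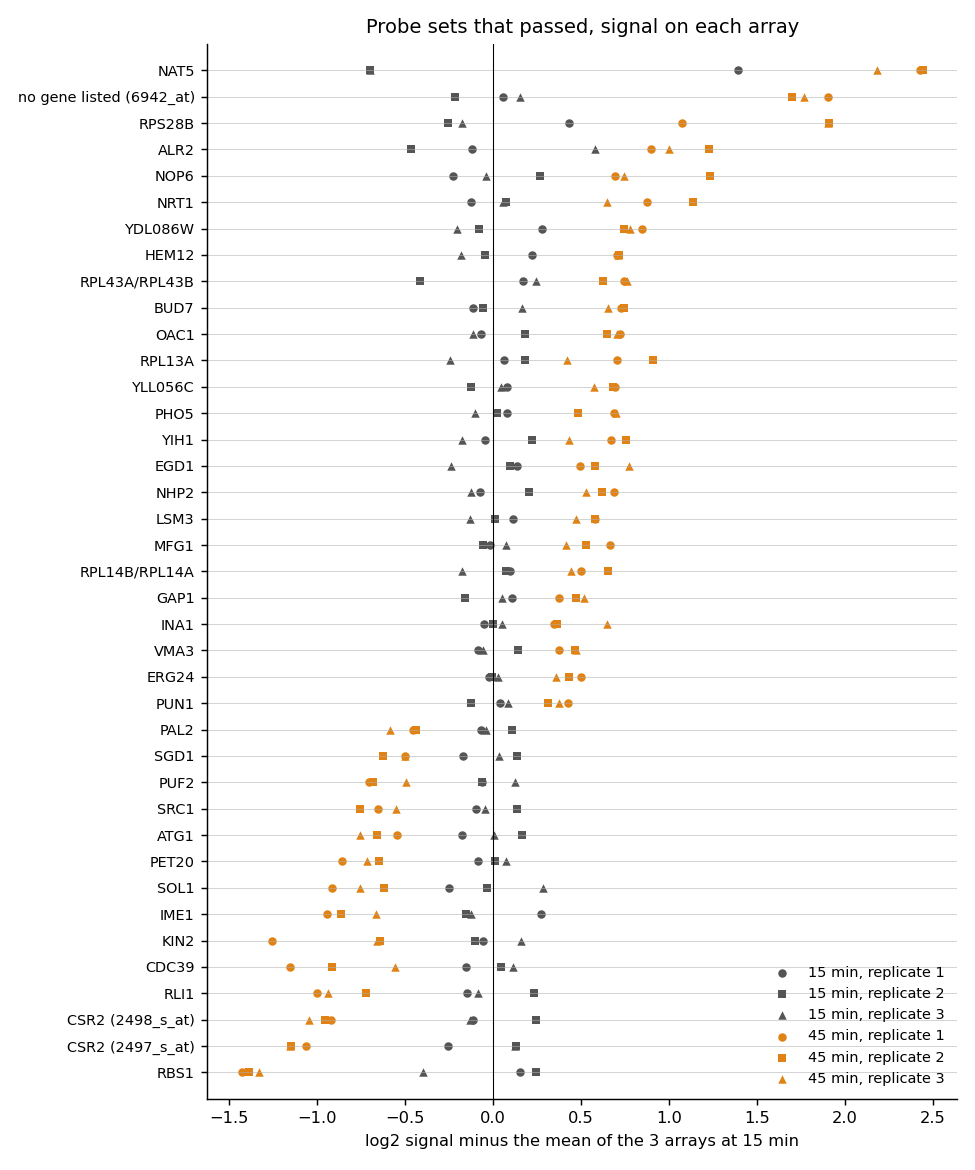
Log2 signal of the 39 probe sets that passed, on each of the 6 arrays, relative to the mean of the 3 arrays at 15 min. Grey marks are 15 min, orange marks 45 min, and shapes are replicate numbers; in every row the 2 colours are separate.

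The transcripts that rose included HEM12, OAC1, GAP1, PHO5 and NHP2. HEM12, the uroporphyrinogen decarboxylase of heme synthesis, had the smallest adjusted p of the comparison. It read 123.2, 102.4 and 93.2 at 15 min and 172.2, 173.7 and 173.0 at 45 min. The later arrays were nearly equal and all higher, a rise of 1.64-fold (0.71 ± 0.09, adjusted p = 0.0055). YDL086W, named in the annotation only by its locus, rose from 907.3, 707.4 and 648.1 to 1341.9, 1250.0 and 1279.8 (0.79 ± 0.11, 1.73-fold, adjusted p = 0.0057). OAC1, the mitochondrial carrier of oxaloacetate, rose from 218.9, 259.4 and 211.7 to 377.5, 359.0 and 373.7 (0.69 ± 0.12, adjusted p = 0.0203). No array of one time reached into the other for any of these genes.

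Among transporters and secreted proteins, GAP1, the general amino acid permease that is repressed on good nitrogen sources, was the brightest gene that rose. It gave 2851.0, 2374.4 and 2740.4 at 15 min and 3438.7, 3670.3 and 3791.5 at 45 min (0.46 ± 0.07, adjusted p = 0.0170). PHO5, the secreted acid phosphatase of phosphate starvation, gave 107.8, 103.4 and 95 and then 164.2, 142.5 and 165.5 (0.62 ± 0.11, adjusted p = 0.0259). Its 45 min mean of 157.4 ± 12.9 was still far below that of the undried control, 4014 ± 54.9. NRT1, a nicotinamide riboside transporter, rose from 30.0, 34.4 and 34.0 to 60.1, 72.0 and 51.3 (0.89 ± 0.15, adjusted p = 0.02), and ALR2, a putative magnesium transporter, from 37.0, 29.1 and 60.0 to 74.8, 94.1 and 80.1 (1.04 ± 0.20, adjusted p = 0.0300). For both, some of the 15 min arrays lay close to background. VMA3, the proteolipid of the vacuolar ATPase, was among the smaller rises, from 1263.8, 1481.1 and 1293.3 to 1739.0, 1858.3 and 1861.5 (0.44 ± 0.09, adjusted p = 0.0497).

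NHP2, a protein of the H/ACA particles that pseudouridylate ribosomal RNA, gave 466.5, 566.1 and 450.1 and then 793.4, 754.8 and 709.9 (0.61 ± 0.11, adjusted p = 0.0219). LSM3, a subunit of the Lsm rings of splicing and messenger RNA decay, gave 119.3, 111.1 and 100.8 and then 164.6, 164.8 and 152.7 (0.54 ± 0.09, adjusted p = 0.0170). All later arrays were higher for both. NOP6, a factor of the small ribosomal subunit's assembly, rose by 0.89 ± 0.17 (adjusted p = 0.0399), but only 1 of its 15 min arrays was above background (21.6, 30.4 and 24.6, against 40.8, 59.4 and 42.3). EGD1, a subunit of the nascent polypeptide-associated complex, rose from 690.5, 671.7 and 532.7 to 883.4, 936.7 and 1072.2 (0.61 ± 0.11, adjusted p = 0.0264). YIH1, an inhibitor of the starvation kinase Gcn2, rose from 257.3, 308.9 and 235.1 to 422.0, 447.9 and 358.2 (0.62 ± 0.13, adjusted p = 0.0444).

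BUD7, which acts in cargo export from the Golgi, rose from 61.4, 63.8 and 74.4 to 109.7, 111.0 and 104.5 (0.71 ± 0.10, adjusted p = 0.0082). It passed on 1 of 3 probe sets, and that one carries a suffix. MFG1, a regulator of filamentous growth, rose from 557.3, 541.2 and 593.6 to 894.4, 813.8 and 750.8 (0.54 ± 0.11, adjusted p = 0.0414), and YLL056C, named by its locus, from 96.1, 83.3 and 94.0 to 146.9, 145.7 and 135.4 (0.65 ± 0.11, adjusted p = 0.02). INA1 rose from 65.0, 67.3 and 69.9 to 85.8, 86.8 and 105.4 (0.45 ± 0.09, adjusted p = 0.0414), but passed in none of the 6 fits that left out an array. The smallest rises had tight groups. ERG24, the C-14 reductase of ergosterol synthesis, gave 129.8, 131.2 and 134.7 and then 186.4, 177.9 and 169.2 (0.43 ± 0.09, adjusted p = 0.04998). PUN1, a plasma membrane protein, gave 678.4, 606.6 and 700.9 and then 887.9, 822.0 and 856.2 (0.37 ± 0.07, adjusted p = 0.0299). NAT5, a subunit of an N-terminal acetyltransferase, was at background on all 6 arrays and gets no fold (adjusted p = 0.0203). A probe set with no gene listed was at background at 15 min and was at least 1.30-fold higher at 45 min (adjusted p = 0.02).

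Genes for cytosolic ribosomal proteins were mostly slightly higher at 45 min, with hardly a call among them. Of the 80 genes with a probe set of their own 1 rose, none fell, 65 were above 0 and the median change was 0.24 log2. Of all 5656 genes 30 were called (0.530%), 21 of them higher (0.371%) and 9 lower (0.159%). Over all 5656 genes, each taken by its brightest probe set, the median was 0.00 and 49.8% were above 0. At an unadjusted p under 0.05, 23 of the 80 were higher (28.8%) and 0 lower, where 7.97% of all genes were higher and 7.28% lower. In 31 the 45 min arrays were all above the 15 min arrays (38.8%, against 10.2% of all genes), and in 1 they were all below (9.55% of all genes). With scaling on the spike-in controls 9 of the 80, in place of 23, were higher at that unadjusted threshold and 0 lower. The 1443 other genes of like brightness had a median of -0.01 and 47.4% above 0.

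The gene that passed was RPL13A, which encodes a large-subunit protein: 54.1, 58.6 and 43.7 at 15 min and 84.2, 97.3 and 69.2 at 45 min (0.68 ± 0.13, adjusted p = 0.0312). RPS28A (161.4 ± 18.9 and 241.7 ± 30.1, adjusted p = 0.0521), RPL17A (388.2 ± 37.1 and 541.7 ± 41.0, adjusted p = 0.0558) and RPS3 (694.6 ± 57.0 and 894.8 ± 42.5, adjusted p = 0.125) did not pass. RPS26A gave 1594.4, 1275.4 and 1817.7 and then 2502.5, 2330.0 and 2534.3, without overlap, but did not pass (0.67 ± 0.99, adjusted p = 0.831). SEs are taken over all 21 arrays, and the undried control of RPS26A was widely spread (101.1 ± 87.6). RPP0, RPL21A and RPL21B also had such controls and SEs of 0.98, 0.98 and 1.06, so they could hardly be called. At the other end, RPL9B and RPL38 had changes of -0.49 and -0.46, and their arrays overlapped. The subunits were alike in this count: 38 of 47 large-subunit genes and 27 of 33 small-subunit genes were above 0, with medians of 0.24 and 0.26. Of the 48 genes whose probe set ends in the plain _at 43 were above 0. Of the 32 with another suffix 22 were, while both medians were 0.24.

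Many ribosomal protein genes of yeast come in near-identical pairs, and 59 further probe sets are shared by ribosomal protein genes. Of these, 54 were above 0 and the median was 0.31. The probe set shared by RPL14A and RPL14B rose from 406.1, 399.1 and 336.3 to 535.3, 595.8 and 516.0 (0.53 ± 0.11, adjusted p = 0.0414), and that shared by RPL43A and RPL43B from 134.3, 89.7 and 141.4 to 200, 184.0 and 202.1 (0.71 ± 0.15, adjusted p = 0.0497). Which copy gave the signal cannot be told apart. RPS28B, a near copy of RPS28A, has 2 probe sets, both with a suffix other than the plain _at. One was at background at 15 min (24.1, 15.0 and 15.8) and read 37.7, 67.2 and 66.9 at 45 min, at least 1.87-fold higher (adjusted p = 0.0076). The other gave 267.6, 29.9 and 277.7 and then 339.8, 193.3 and 446.6 (1.24 ± 0.59, adjusted p = 0.367), with the second 15 min array far below the rest.

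On each array, the median signal of the 80 genes was 331.9, 320.3 and 312.0 at 15 min and 354.2, 381.8 and 394.9 at 45 min, with no overlap. The median over all genes was 253.7, 252.1 and 244.0 and then 251.5, 248.5 and 248.0. The step was small beside the rest of the cycle. The mean of the array medians of these genes was 3919 in the undried control, 662.8 after 18 h of drying, 430.1 in the dry state, 321.4 at 15 min, 377.0 at 45 min, 416.9 at 90 min and 913.6 at 360 min. The mean log2 signal of the spike-in controls also differed between time points. It was 8.48, 8.43 and 8.26 in the control, 9.83, 9.96 and 9.45 at 90 min and 10.66, 10.77 and 10.68 at 360 min. At both 15 and 45 min it averaged 9.42. The part of this in the course was not tested.

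**Figure D3:**
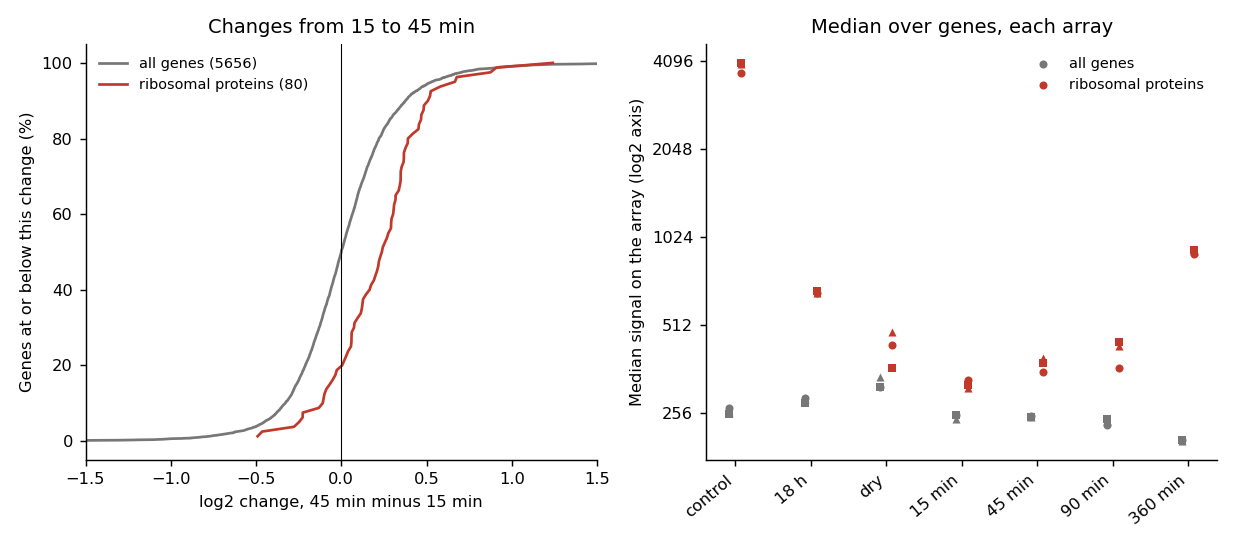
Left, the percentage of genes at or below each log2 change from 15 to 45 min, for the 80 ribosomal protein genes (red) and all 5656 genes (grey). Right, the median signal over the same genes on each of the 21 arrays, on a log2 axis, with the lowest ribosomal protein values at 15 min.

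The genes of ribosome assembly had a median close to 0. Of 128 genes of ribosome biogenesis 2 rose, NHP2 and NOP6 (0.371% of all genes rose), and none fell (0.159% of all genes fell). Of the 128, 59 were above 0 and the median was -0.02. NOP14, an assembly factor of the small subunit, was at 50.4 ± 8.89 and 78.4 ± 3.17 (adjusted p = 0.0814), and ENP1 at 181.4 ± 47.3 and 104.4 ± 38.0 (adjusted p = 0.130). RNA polymerase I and III subunits (19 genes, median 0.01), translation factors (31, median -0.01), transfer RNA synthetases (18, median 0.01) and mitochondrial ribosomal proteins (67, median -0.01) held no call. Within translation, the helicase DED1 stood at 1516 ± 123 and 988.4 ± 137 and did not pass (-0.62 ± 0.15, adjusted p = 0.0824).

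Across 53 lists that together cover 1688 genes, 48 had a median change between -0.12 and 0.12, and 40 held no call. With 0.530% of all genes called, a list without a call is the usual case. After the ribosomal proteins the highest median was that of 11 vacuolar proteases and their inhibitors, 0.19, with none at an unadjusted p under 0.05. It was 0.02 after quantile normalization. The lowest medians were those of TOR and protein kinase A signalling (38 genes, -0.12) and of trehalose and glycogen metabolism (23 genes, -0.10, of which 5 were lower and 1 higher at an unadjusted p under 0.05, as were 7.28% and 7.97% of all genes). Neither list held a call. Mitochondrial import and assembly (26 genes, median 0.00) had 7 lower and 2 higher at that unadjusted threshold, also without a call.

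In carbon metabolism no gene of glycolysis and fermentation (22), the glyoxylate cycle and gluconeogenesis (23), the tricarboxylic acid cycle (24), fatty acid oxidation (38) or the nuclear respiratory chain (39) passed. PDC1, the main pyruvate decarboxylase, came nearest at 5486 ± 610 and 7332 ± 551 (0.42 ± 0.09, adjusted p = 0.0521). The pentose phosphate list held SOL1 alone among 18 genes. In autophagy ATG1 fell, 34 of 35 genes did not pass and 5 were lower with 0 higher at an unadjusted p under 0.05 (7.28% and 7.97% of all genes). Among 30 genes under nitrogen catabolite repression GAP1 rose and the proline permease PUT4 was at 3549 ± 813 and 4592 ± 176 (adjusted p = 0.244). Of 38 genes of iron, copper and zinc handling 8 were higher and 3 lower at an unadjusted p under 0.05 (7.97% and 7.28% of all genes), led by the siderophore transporter SIT1 (925.4 ± 141 and 1344 ± 119, adjusted p = 0.0824).

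**Figure D4:**
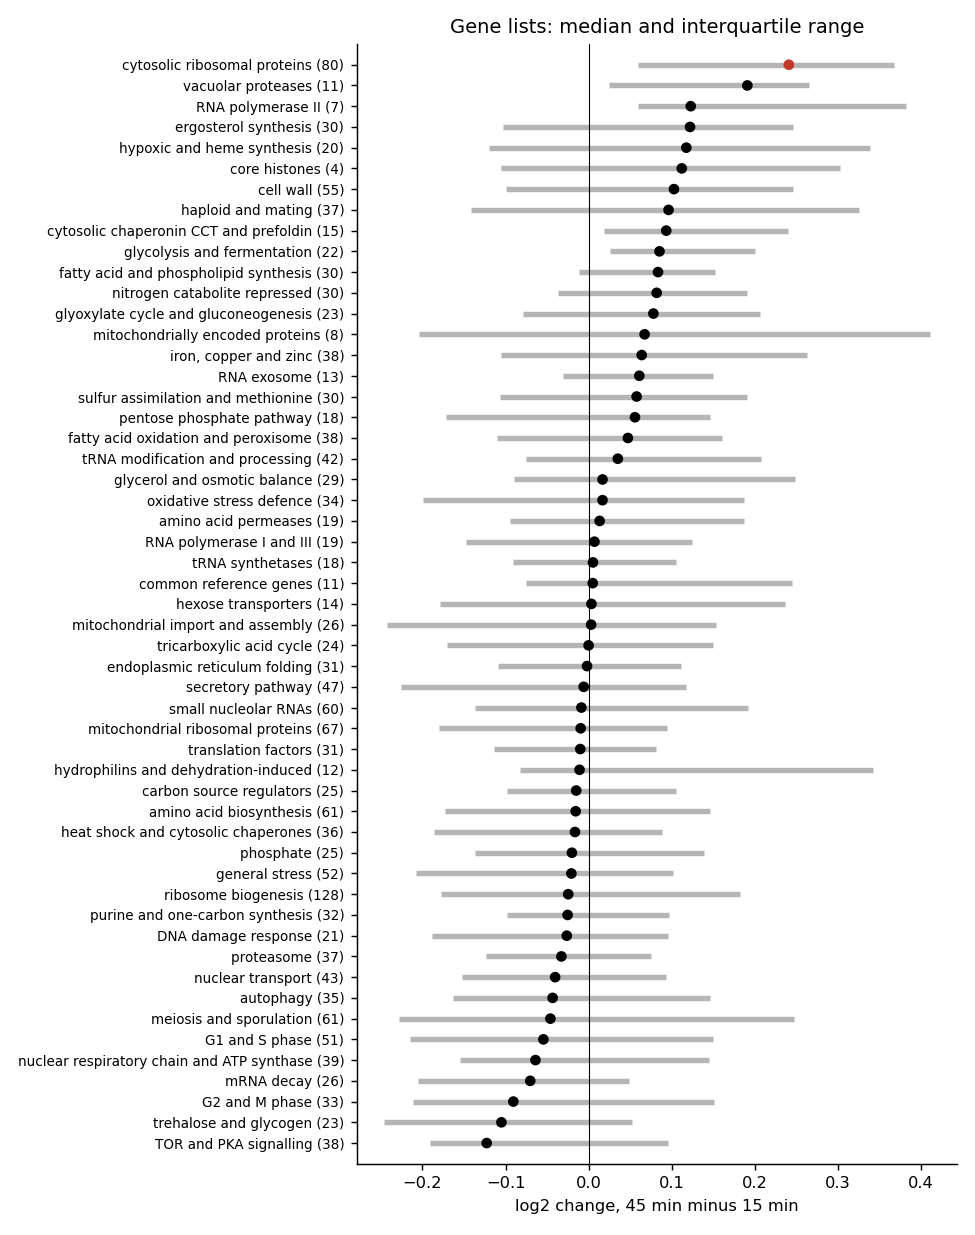
Median log2 change from 15 to 45 min (points) and the interquartile range of the members (bars) for each of the 53 gene lists, with the number of measured genes in brackets. The ribosomal proteins (red) have the highest median, 0.24.

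Lists that mark other states of a diploid culture had medians near 0. Of 61 genes of meiosis and sporulation 22 were above background on all 6 arrays, IME1 fell, none rose and the median was -0.05. Among all genes 0.159% fell and 0.371% rose. RIM4, an RNA-binding protein of meiosis, was at 459.0 ± 45.9 and 342.2 ± 26.04 (adjusted p = 0.180). None of 37 genes of haploid cells and mating passed, and their median was 0.10. Only 17 of the 37 were above background on all 6 arrays. Most members of both lists thus lay at or near background on some array, which limits what these medians can show.

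Of 12 genes listed as hydrophilins or as induced by water loss 1 rose, NOP6, and none fell. In these data NOP6 was lower on drying than in the undried control. It read 176.7 ± 14.8 there, 36.6 ± 2.92 after 18 h of drying and 89.8 ± 9.42 in the dry state. Of 22 genes listed for their role in stress, nutrient use or growth, 0 passed at the adjusted threshold and 18 had overlapping groups. Of all genes 0.530% passed, and 10.2% were separate upward and 9.55% downward, so these counts are near those shares. For 21 of the 22 the 95% confidence interval lay within 2-fold, as it did for 90.0% of the probe sets above background on all 6 arrays. The exception was HSP12, a membrane-stabilising hydrophilin, with 4766.1, 2856.0 and 4342.7 at 15 min and 6646.5, 7092.6 and 6887.2 at 45 min. All 3 later arrays were higher, but the early ones were widely spread, and it did not pass (0.82 ± 0.24, adjusted p = 0.139). SIP18, another hydrophilin, gave 7717.1, 4720.5 and 9357.1 and then 9979.9, 9812.2 and 8480.6 (0.43 ± 0.19, adjusted p = 0.328), with overlap. GRE1, its relative, gave 8588.5, 6597.3 and 10013.7 and then 10388.8, 10526.4 and 9955.9, also with overlap. In all 3 genes the second 15 min array was the lowest of the 6.

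TPS2, the phosphatase that completes trehalose synthesis, gave 3672.8, 4185.7 and 3863.9 at 15 min and 2026.8, 2915.6 and 3011.4 at 45 min. The groups were separate, yet it did not pass (-0.58 ± 0.18, adjusted p = 0.155). TPS1, which makes trehalose phosphate, gave 4632.4, 5049.4 and 5407.6 and then 5284.2, 4747.1 and 5036.4, and its groups overlapped. The small heat shock protein HSP26 (4677.9, 4262.7 and 5032.2, then 5292.4, 5106.3 and 4812.2) and the Hsp70 SSA3 (6053.6, 6348.7 and 5538.1, then 6258.9, 4992.6 and 6755.5) overlapped too. So did ICL1, the isocitrate lyase of the glyoxylate cycle, with 4983.9, 5991.9 and 5009.4 and then 5541.8, 5599.0 and 5314.6. Of growth genes, the G1 cyclin CLN3 (244.1, 237.1 and 215.3, then 264.7, 254.4 and 231.4) and the RNA polymerase I subunit RPA190 (659.8, 753.9 and 639.6, then 685.3, 634.0 and 623.6) overlapped. NOP56, a core protein of box C/D particles, was close to background, with 37.0, 21.1 and 30.7 and then 22.4, 29.2 and 51.1.

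The 39 probe sets were also followed through steps that share no array with 15 and 45 min. Of the 14 that fell, 11 (78.6%) had risen in the first 18 h of drying, where 36.2% of all probe sets rose, and 2, KIN2 and RLI1, had fallen. From 18 h to the dry state 6 of the 14 rose (42.9%, against 22.1% of all) and 1, IME1, fell (17% of all). The same 11 fell again between 90 and 360 min (22.0% of all did), and none rose there. Of the 25 that rose, 20 (80%) had fallen in the first 18 h of drying (27.3% of all) and 3, ALR2, GAP1 and MFG1, had risen. From 18 h to the dry state the 25 were divided: 11 rose (44%, against 22.1% of all) and 8 fell (32%, against 17% of all). Between 90 and 360 min 16 of the 25 rose (64%, against 15.4% of all) and 2, PUN1 and VMA3, fell. The shared probe sets make up at most 1.12% of any of those longer lists. The fit gives each probe set the same spread in all steps. Probe sets with a small spread, which pass more easily here, also pass more easily in the other steps. The shares of all probe sets are thus not an even baseline for these counts.

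The size of the change from 15 to 45 min differed from that between 90 and 360 min for 14 of the 39 (limma, adjusted p of the difference under 0.05, against 20.5% of all probe sets). The spread of each probe set is shared here too, so that percentage is not an even baseline either. PAL2 and PET20 fell more in the later interval, with changes of -1.92 and -2.12 log2 there and of -0.49 and -0.74 from 15 to 45 min. PHO5 rose by 0.62 and then by 1.72. YDL086W and OAC1 rose in the earlier interval and changed by -0.16 and -0.04 in the later one, neither of which passed, and the differences had adjusted p of 0.00045 and 0.0067.

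The adjoining steps share the 15 min or the 45 min arrays and are given as values only. GAP1 read 3898 ± 50.96 dry, 2655 ± 249 at 15 min, 3634 ± 179 at 45 min and 3601 ± 108 at 90 min. YDL086W read 2023 ± 98.1, 754.3 ± 136, 1291 ± 46.9 and 1262 ± 133 at the same times. LSM3 read 478.2 ± 56.4, 110.4 ± 9.27, 160.7 ± 6.93 and 194.3 ± 7.05. In these genes the 15 min level was the lowest of the 4. They were picked among genes called higher at 45 min, so a low 15 min level is part of the choice. INA1, also called higher, read 48.8 ± 4.93 dry and 67.4 ± 2.45 at 15 min. HEM12 went on rising, to 235.3 ± 11.0 at 90 min and 326.8 ± 6.98 at 360 min, and was at 1131 ± 36.2 in the undried control.

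**Figure D5:**
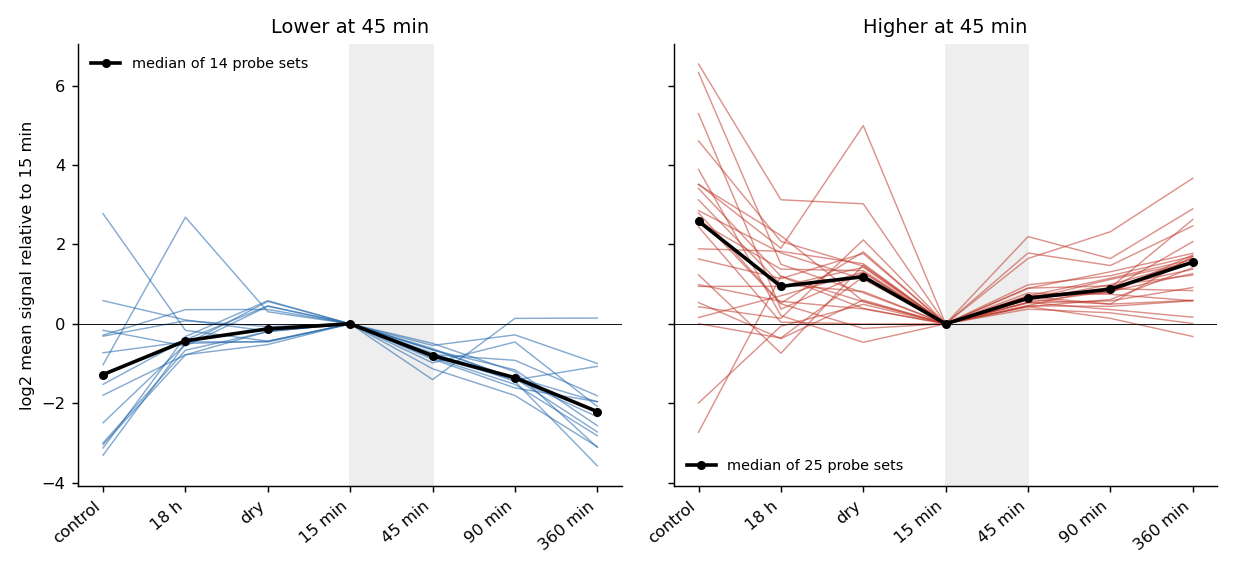
Log2 mean signal of each of the 39 probe sets at the 7 time points, relative to its own mean at 15 min, with the median in black and the interval from 15 to 45 min shaded. The members were chosen for their difference in the shaded interval, so the bend at 15 min is part of the choice; at 360 min the median is -2.21 for the 14 that fell and 1.55 for the 25 that rose.

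The arrays of the 2 times were close to one another in general. Log2 signals correlated across probe sets with r from 0.967 to 0.972 between arrays of one time and from 0.962 to 0.973 between arrays of different times, and all 6 were scanned on the same day. Ratios of 3′ to 5′ signal, a measure of RNA integrity, were 1.72 ± 0.18 and 1.89 ± 0.20 log2 for ACT1 and 2.09 ± 0.17 and 2.31 ± 0.08 for SRB4 at 15 and 45 min, and 2.39 ± 0.17 and 2.35 ± 0.26 for SPT15 (two-sided exact permutation p = 0.3, 0.2 and 0.9, where 0.1 is the smallest p that 3 against 3 can give). The mean signal of the 18S ribosomal RNA controls was 67.0 ± 15.97 and 41.7 ± 3.37, without overlap (exact p = 0.1), and that of the 25S controls was 2427 ± 851 and 2584 ± 627 (exact p = 0.8). The part of these in the changes above was not tested.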

How the data were processed

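The deposited table holds intensities, 1 linear signal per probe set and array of the Affymetrix YG_S98 chip. Per the labels, cRNA was hybridized, images were read with the GeneChip software and a Wilcoxon signed-rank step, and signals were consolidated with a linear mixed model whose terms are not given in the sources used here, nor is it known if it was applied to these values. Arrays shared a 2% trimmed mean of 500.2 to 500.6, so the signals were taken as already scaled. Run records gave only the scan day.

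Values under 2.8, the 5th percentile of positive values, were set to 2.8 (4.86% of tested values), and log2 of the deposited intensity was taken. limma 3.58.1 (R 4.3.3) fitted 1 mean per time point to all 21 arrays, with eBayes (14 residual and 1.53 prior degrees of freedom). Background is the 95th percentile of 19 mouse and unspiked bacterial control probe sets. Where a group was at background on all 3 arrays, "at least N-fold" sets the mean of the brighter group against that level. The scripts were tested on simulated data. The number of arrays limits the precision.

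Genes were named through the platform annotation and RefSeq (R64, names only, all 6504 matched). A suffix other than the plain _at is carried by 1730 tested probe sets. Each was treated as a mark of possible cross-hybridization, although these suffixes are of several kinds. In lists a gene is its brightest probe set. The rule for named genes took probe sets with 1 standard name, no suffix, an adjusted p under 0.05, no overlap and 3 arrays above background in a group: the 15 largest rises (17 qualified) and the 15 largest falls (9 qualified), plus up to 4 genes per list and 22 fixed genes. Since only 39 passed, the rest are named too, chosen after their values were seen. The lists, fixed genes and the comparison itself were chosen with earlier results of these data known. Promoter sequences were not used here. Same-numbered arrays of 15 and 45 min deviated together with correlations of -0.10, 0.01 and -0.03, so the numbers were not treated as pairs.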

Additional observations from a re-analysis of the deposited data

How the results depend on the processing

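All 39 probe sets kept their direction in every setting that tested them (36 of 39 without the dimmest 25%), except NAT5, which became 0 with a floor at the 20th percentile. The number that passed depended on the setting. Against 25 higher and 14 lower, quantile normalization gave 19 and 7 (73.1% higher in place of 64.1%), median centring 20 and 5 (80% higher), and scaling on the spike-in controls 0 and 0, with 650 at an unadjusted p under 0.05 and a smallest adjusted p of 0.153. Without a floor 18 rose and 9 fell, with the floor at the 20th percentile 32 and 27, with log2(value + 50) 28 and 26, and without the dimmest 25% 24 and 15. A fit to the 6 arrays alone, with 4 residual degrees of freedom, gave 1 and 0, and 1037 at an unadjusted p under 0.05; its 1 call was not among the 39. An intensity trend in the variance gave 40 and 24, scan day as a block 36 and 24, and a minimum change of 2-fold 4 and 2. The cause of these shifts was not tested. Leaving out an array gave 6 to 43 higher and 6 to 55 lower: 43 and 18 without 15 min replicate 1, 24 and 6 without 15 min replicate 2, 14 and 6 without 15 min replicate 3, 6 and 6 without 45 min replicate 1, 9 and 6 without 45 min replicate 2, and 32 and 55 without 45 min replicate 3. With the replicate number as a block 13 rose and 8 fell, all 21 among the 39. The ribosomal protein median lay between 0.20 and 0.27 in all of these settings, with 61 to 67 of 80 genes above 0. Of 956 recomputed list medians 945 moved by less than the spread between replicates and 11 by more. Signals near background, as for RBS1, NAT5, NOP6 and RPS28B, limit what can be said of those genes.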

Other observations

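Several of the largest estimates of the comparison rested on 1 or 2 low 15 min arrays and did not pass; these genes were picked after their values were seen. HOR7, a small protein of the osmotic stress response, had the largest estimate, with 7.2, 4.0 and 3488.6 at 15 min and 3838.1, 5912.9 and 2739.5 at 45 min (6.41 ± 2.01 log2, adjusted p = 0.171). Its highest 15 min array was within the range of the 45 min arrays. One probe set of SSA1, a cytosolic Hsp70, gave 4883.5, 21.6 and 6178.0 and then 7562.8, 7741.7 and 7589.4 (adjusted p = 0.452). One of TDH3, the main glyceraldehyde phosphate dehydrogenase, gave 3164.4, 29.6 and 4616.7 and then 5950.4, 5579.8 and 5595.3 (adjusted p = 0.481). In both, the second 15 min array stood far below the other 5.

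That array stood alone in this way more often than the rest. With the other 5 arrays all above 100, 13 probe sets were over 4-fold lower on 15 min replicate 2 alone, 2 on 45 min replicate 1 alone and 0 on each of the other 4 arrays. They include GGA1, VMA1, DYN2, YDR262W and the second RPS28B probe set. Among the 348 probe sets with a mean signal over 4000, the median deviation from the mean of the 6 arrays was -0.05, -0.11 and 0.06 log2 at 15 min and 0.07, 0.07 and 0.06 at 45 min, and 230 (66.1%) had a change above 0, although none passed. HSP12, SIP18 and GRE1 lie in that range of signal. Without 15 min replicate 2 the change of HSP12 was 0.60 ± 0.24 (adjusted p = 0.330) and that of SIP18 was 0.15 ± 0.14 (adjusted p = 0.753).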
